A study of Mus musculus with 4 samples.

Results

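The DNA damage response of large intestinal (LI) Treg cells was followed through 57 genes that detect broken or altered DNA, signal it, or repair it. They form a list of gene names with no threshold on a measured value, drawn up with earlier results of these data known, and all 57 were found among the 53379 genes of the deposited expression table. By role, they comprised 8 checkpoint kinases and break mediators, 7 genes of p53 with its regulators and targets, 3 mismatch repair genes, 12 homologous recombination genes, 3 Fanconi anaemia genes, 6 genes of non-homologous end joining, 9 genes of base excision and single-strand break repair, and 9 genes of nucleotide excision repair. RNA-seq was performed on Treg cells (CD3+CD4+YFP+) sorted at steady state from the large intestine of C57BL/6 mice aged 6 to 12 weeks, of both sexes. Control mice carried 1 floxed and 1 intact allele of Setd2 (Foxp3Cre-YFP Setd2f/+, labelled Setd24flox/+Foxp3-YFPcre) and KO mice carried 2 floxed alleles (Foxp3Cre-YFP Setd2f/f, labelled Setd24flox/floxFoxp3-YFPcre). Both genotypes expressed Cre-YFP from the Foxp3 locus, so deletion was limited to cells that had expressed Foxp3, and the control cells were heterozygous rather than wild type. Each genotype was represented by 2 libraries, and each library pooled 2 to 3 mice.

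Setd2 deposits the H3K36me3 mark over the bodies of transcribed genes. In other cells this mark is known to be bound by the mismatch recognition complex and, through a reader protein, to bring the end-resection factor CtIP (encoded by Rbbp8) to DNA breaks. Broken or stalled DNA activates the kinases ATM and ATR, which act through the checkpoint kinases Chk1 and Chk2 and through p53. p53 in turn induces genes that halt the cell cycle, limit oxidative stress or feed back on p53 itself, and each kind of lesion has its own repair pathway. Most of these proteins are controlled by phosphorylation, ubiquitination and localization, so an mRNA level is a measure of how much of the machinery a cell transcribes and not of its activity.

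Expression was given as FPKM, a fragment count scaled to transcript length and library size, so that levels can be compared between genes. The 4 libraries shared almost the same distribution of FPKM above 0, but control 2 had 28426 genes at 0 compared with 33223 to 33957 in the other 3, and their depth is unknown, so the precision of each value is given by the spread between the 2 pools of a genotype. The targeted gene Setd2 had an FPKM of 38.2 and 27.4 in the control libraries and of 26.3 and 36.3 in the KO libraries. These ranges overlap, and since the value covers the whole gene and not the deleted part, it does not check the labels. Of the Treg cell markers, Ctla4, Il2ra, Cd4, Cd3e and Ikzf2 were each above 80 FPKM in all 4 libraries, but Foxp3 itself was low, at 2.62 and 5.61 in control and 4.66 and 3.05 in KO. Among the 5 tested markers, Ctla4, an inhibitory receptor, was called higher in KO (1593 and 1701 FPKM in control, 2160 and 2310 in KO, log2 fold change 0.44, adjusted p = 0.132) and Ikzf2, which encodes the transcription factor Helios, was called lower (120.8 and 115.6, 84.1 and 98.4, -0.37, adjusted p = 0.222), by the rule of an unadjusted p below 0.05 described next. In bulk samples, fewer cells of a type and less RNA per cell cannot be told apart.

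Differences were tested with limma on log2(FPKM + 1) for the 7639 protein-coding genes whose mean FPKM exceeded 5 in control or KO, and a gene was called when its unadjusted p was below 0.05, the criteria of the study. Under this rule 16.2% of all genes tested were called, 8.61% as higher and 7.57% as lower in KO. That is 1236 genes, and 644 without KO 2. With Benjamini-Hochberg adjustment, 0.589% of the genes passed an adjusted p of 0.05. These 45 genes became 2 without KO 1, 3 without KO 2, 44 without control 1 and 66 without control 2. Since limma borrows the variance of each gene from the others, its p-values can be small here, whereas the smallest p of an exact permutation test of 2 against 2 libraries is 0.333.

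Of the 57 genes, 38 were tested and 3 were called, which is 7.89% of those tested, compared with 16.2% of all genes. Cdkn1a and Lig1 were called higher in KO, and Atrip was called lower. Without KO 1, 5 genes were called, as Lig1 dropped out and Ung, Mre11a and Xrcc1 came in as lower. None of the 38 passed the adjusted threshold, and the smallest adjusted p was 0.0821, for Atrip. With control 1 paired to KO 2 and control 2 to KO 1, an alternative added after the data were seen, 2 of the 38 passed it, Atrip and Cdkn1a, as did 465 of all genes. Same-numbered libraries deviated in opposite directions (Pearson r of -0.305), so the crossed pairing removes spread between pools and raises the calls by its construction. No label gives such a pairing, and these passes are no added support. The median log2 fold change (KO over control) was 0.02 over the 38 genes and -0.004 over all genes tested, with 20 of the 38 above 0 and 18 below, and the median of the 38 lay between -0.022 and 0.046 when each library was left out in turn. In 25 of the 38 the log2 fold change was within 0.2 of 0, and in 3 it exceeded 0.5 in size. The control and KO libraries did not overlap in 16 of the 38 genes, or 42.1%, compared with 47.1% of all genes tested. For 26 of the 38 (68.4%), the 2 pools of at least 1 genotype differed from each other by more than KO differed from control, compared with 64.7% of all genes tested, so the share among the 38 was near that of all genes. The median difference between the 2 control pools was 0.14 on the log2 scale, that between the 2 KO pools 0.18, and the median size of the difference between genotypes 0.14. Over all genes tested these medians were 0.19, 0.16 and 0.18.

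**Figure D1:**
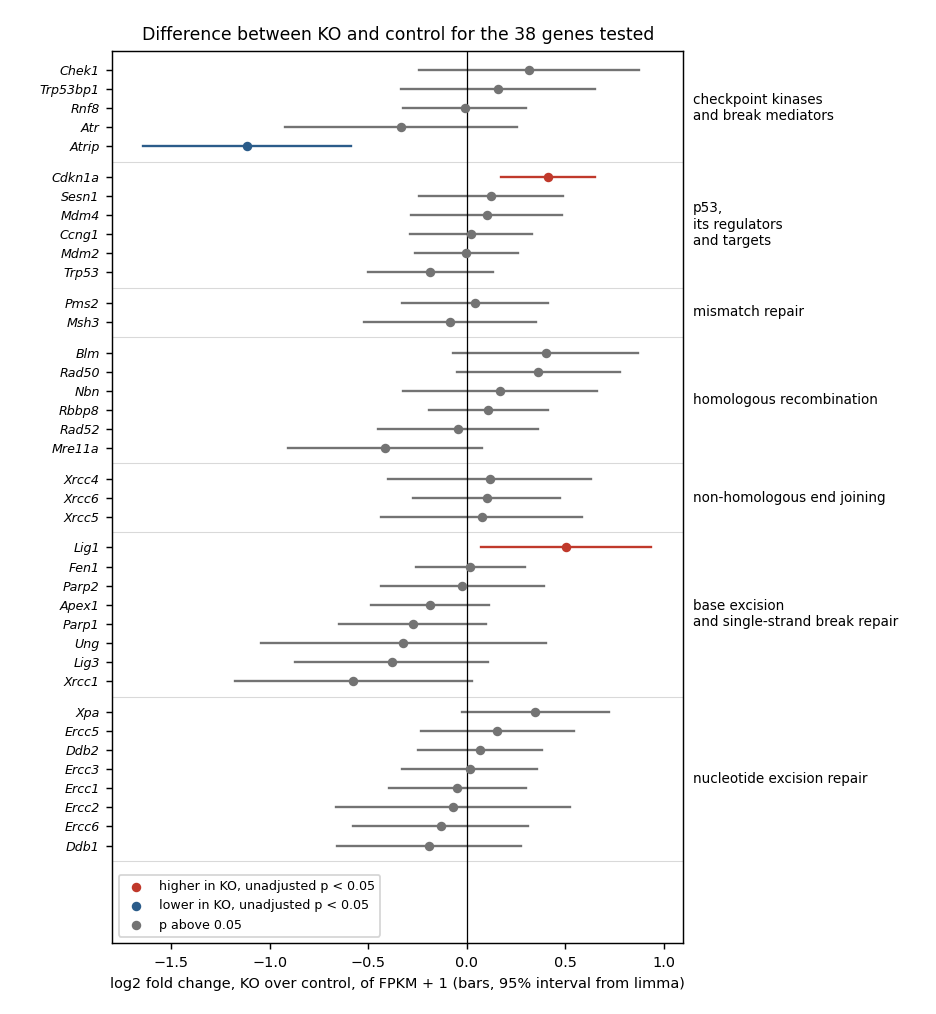
Log2 fold change of FPKM + 1, KO over control, for the 38 genes tested, grouped by role, with the 95% interval from limma as a bar. Most intervals span 0, and Cdkn1a and Lig1 lie to the right of 0 and Atrip to the left of it.

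p53 and its downstream genes held the largest share of the transcripts of this group. Cdkn1a encodes p21, the inhibitor of cyclin-dependent kinases that arrests the cell cycle downstream of p53. It was by far the most abundant of the 57 genes and ranked 96 by mean FPKM among the 7639 genes tested. Its FPKM was 823.9 and 816.3 in the control libraries and 1108 and 1077 in the KO libraries. The genotypes were well apart, and the 2 pools of each were close to each other. The mean rose from 820.1 ± 5.38 to 1093 ± 22.1 (SD, n = 2 each), 1.33-fold, with a log2 fold change of 0.41 (SE 0.10, 95% interval 0.17 to 0.65, an unadjusted limma p of 0.0045, adjusted p = 0.126). Cdkn1a supplied 46.9% and 46.4% of the summed FPKM of the 57 genes in control and 54.0% and 54.5% in KO. The sum over all 57 was 1755 and 1759 in control and 2052 and 1976 in KO. Without Cdkn1a it was 931 and 942 in control and 943 and 899 in KO, with no separation of the genotypes.

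No other gene of the p53 axis was called. Trp53, which encodes p53, had 76.7 and 93.3 FPKM in control and 76.7 and 72.1 in KO, a difference of -0.18 on the log2 scale (95% interval -0.50 to 0.13, adjusted p = 0.551). The highest value came from control 2, and the other 3 libraries lay close together. Mdm2, the ubiquitin ligase that p53 induces and that degrades p53, had 79.9 and 82.5 FPKM in control and 81.1 and 81.0 in KO. All 4 values lay within a narrow range, and the log2 fold change was -0.003 (95% interval -0.26 to 0.26). Mdm4, an inhibitor of p53 transcriptional activity, had 41.1 and 40.1 FPKM in control and 50.5 and 37.6 in KO (log2 fold change 0.10, adjusted p = 0.815). Ccng1, which encodes the p53 target cyclin G1, had 39.7 and 41.5 in control and 38.7 and 43.9 in KO (0.02, adjusted p = 0.962). Sesn1, a p53-induced inhibitor of mTORC1 signalling, had 36.6 and 33.8 in control and 43.4 and 33.9 in KO (0.12, adjusted p = 0.759). In Mdm4 and Sesn1 a single library, KO 1, was above the other 3. Sesn2, a stress-induced relative of Sesn1, stayed under the expression limit at 3.27 and 4.73 in control and 4.22 and 1.78 in KO. The 95% intervals of Trp53, Mdm2 and Ccng1 stopped short of the log2 fold change of Cdkn1a, while those of Mdm4 and Sesn1 (up to 0.48 and 0.49) included it.

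**Figure D2:**
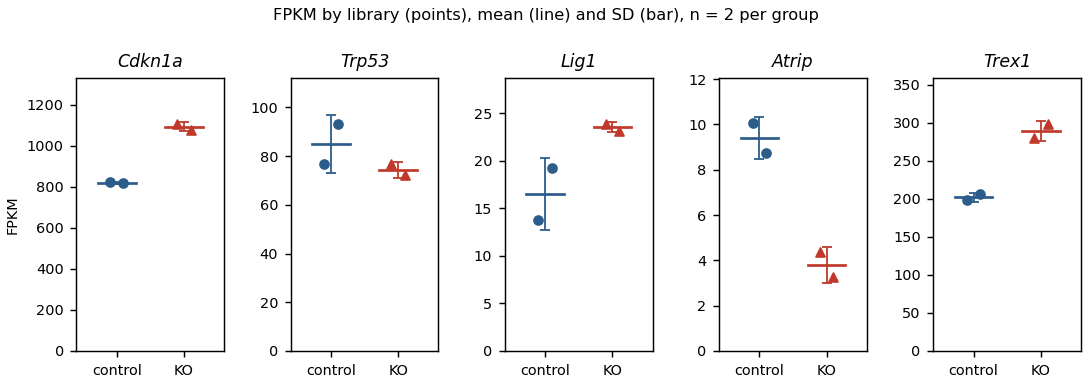
FPKM of Cdkn1a, Trp53, Lig1, Atrip and the neighbouring gene Trex1 in each library, with the mean (line) and SD (bar) of the 2 libraries per group; each panel starts at 0 and has its own scale. Cdkn1a, Lig1 and Trex1 are higher in both KO libraries, Atrip is lower in both, and Trp53 overlaps between the genotypes.

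Cdkn1a (ENSMUSG00000023067, chr17:29090976-29100727, plus strand of GRCm38) has a pair of start regions in RefSeq, and both are shown because Cdkn1a is the textbook target of p53. Each window runs from 250 bases before to 50 bases after a start site, 5′ to 3′ on the gene's strand. Capitals in the upstream window mark a match to the p53 binding site, and capitals in the downstream window mark the letters GGGCGG of the Sp1 type of GC box.
Cdkn1a, upstream start, chr17:29090729-29091028, plus strand: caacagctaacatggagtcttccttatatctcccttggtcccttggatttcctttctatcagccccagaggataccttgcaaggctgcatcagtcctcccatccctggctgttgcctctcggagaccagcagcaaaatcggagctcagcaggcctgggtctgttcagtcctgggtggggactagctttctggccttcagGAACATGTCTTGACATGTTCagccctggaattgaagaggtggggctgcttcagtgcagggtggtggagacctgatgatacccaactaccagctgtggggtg
Cdkn1a, downstream start, chr17:29093519-29093818, plus strand: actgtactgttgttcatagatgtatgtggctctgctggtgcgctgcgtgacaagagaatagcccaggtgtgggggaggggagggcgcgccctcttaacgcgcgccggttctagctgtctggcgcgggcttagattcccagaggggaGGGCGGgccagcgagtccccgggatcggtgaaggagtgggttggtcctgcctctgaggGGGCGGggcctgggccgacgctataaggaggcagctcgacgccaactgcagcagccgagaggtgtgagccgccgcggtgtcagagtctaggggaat
Of the 5 GENCODE transcripts of Cdkn1a, 2 start in the upstream window and 2 in the downstream one. The p53 site was searched as 2 adjoining copies of the p53 decamer that form 20 bases, with no more than 1 mismatch outside the invariant C and G of each copy, an allowance chosen after the windows were seen. RefSeq promoter windows (GRCm38.p6) were found for 48 of the 57 genes, 57 windows in all. A p53 site was present in 2 of these 57 windows, or 3.51%, compared with 11 of 21263 windows of protein-coding genes, or 0.0517%. The 2 sites belonged to Cdkn1a and Ccng1. Both genes were listed as p53 targets and the allowance followed a look at the windows, so these shares describe the windows and test no enrichment. The 2 sites are set side by side because both genes are p53 targets while their mRNAs gave different values here.
Cdkn1a, chr17:29090928-29090947: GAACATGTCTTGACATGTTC
Ccng1, chr11:40755462-40755481, minus strand: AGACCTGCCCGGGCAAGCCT
Each site had 1 mismatch to the consensus. The Cdkn1a site ended 32 bases before the upstream start, and the Ccng1 site 176 bases before its start. Cdkn1a was called higher in KO and Ccng1 had a log2 fold change of 0.02. These are matches of letters, and binding of p53 was not measured.

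A further list held 29 genes outside the 57 that were listed as p53 targets, and whether p53 regulates each of them in these cells was not tested. For a difference between KO and control, 23 were tested, none was called higher and 3 were called lower. That is 13.04% of those tested, compared with 16.2% of all genes (8.61% higher and 7.57% lower). Their median log2 fold change was 0.07. The lower genes were the stress-response genes Gadd45g (268.9 and 270.7 FPKM in control, 194.2 and 204.6 in KO, log2 fold change -0.44, p of 0.0037), Gadd45b (436.4 and 541.8 in control, 363.4 and 340.6 in KO, -0.47, p of 0.0088) and the pro-apoptotic gene Bbc3, which encodes PUMA (5.23 and 5.69 in control, 3.52 and 2.48 in KO, -0.70, p of 0.026). None of the 3 passed the adjusted threshold, with adjusted p-values of 0.119, 0.168 and 0.242. Gadd45a, of the same family as Gadd45g and Gadd45b, was not called (36.3 and 25.4 in control, 29.0 and 25.7 in KO, -0.15). The summed FPKM of the 29 genes was 1945 and 1987 in control and 1848 and 1830 in KO. Gadd45b and Gadd45g, both abundant and both lower, weigh heavily in this sum, so it does not describe the list as a whole. By number, 13 of the 23 tested genes had a log2 fold change above 0 and 10 below. Cdkn1a was the single gene called higher among the 29 tested genes of the p53 axis and the further target list, of which 6 belonged to the 57 and 23 to the further list.

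The checkpoint kinases and the proteins that gather at breaks were transcribed at low to moderate levels. The highest was Rnf8, a ubiquitin ligase that marks chromatin around breaks, with 26.9 and 28.6 FPKM in control and 27.7 and 27.3 in KO, a log2 difference of -0.01 (95% interval -0.32 to 0.30). Some of its reads may belong to Gm28043, an annotated gene on the same strand that covers 13.2% of its exon bases. Trp53bp1, which encodes 53BP1 and favours end joining over resection, had 14.7 and 15.3 in control and 20.8 and 13.7 in KO, so that KO 1 alone was high (0.16, adjusted p = 0.774). Atr, the kinase of stalled forks, had 5.87 and 4.74 in control and 3.39 and 4.66 in KO (-0.33, adjusted p = 0.563). Chek1, its effector kinase, had 4.83 and 4.80 in control and 5.21 and 7.45 in KO (0.32, adjusted p = 0.563). In both genes the genotypes did not overlap, but the 2 KO pools differed by more than the genotypes did. Atm (3.00 and 2.30 in control, 3.57 and 4.28 in KO), Chek2 (1.67 and 0.12, 0.85 and 1.92) and the scaffold Mdc1 (0.74 and 0.72, 0.97 and 0.64) were below the expression limit.

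Atrip, the partner that brings ATR to single-stranded DNA, had the largest difference of the 38 genes. Its FPKM was 10.0 and 8.73 in the control libraries and 4.37 and 3.25 in the KO libraries. Both KO libraries were below both control libraries, and the mean was 2.46-fold higher in control (9.39 ± 0.93 in control and 3.81 ± 0.79 in KO, SD, n = 2 each). The log2 fold change was -1.12 (SE 0.23, 95% interval -1.65 to -0.59, an unadjusted limma p of 0.0014, adjusted p = 0.0821). Atrip (ENSMUSG00000025646, chr9:109057933-109074124, minus strand) lies on the same chromosome as Setd2, 1.46 Mb away. Of the other 4 genes of the 57 on chromosome 9, Atr was 14.6 Mb from Setd2, Atm 57 Mb, Chek1 73.8 Mb and Mre11a 95.7 Mb, and none of them was called. Whether the position of Atrip near the targeted gene has a part in its difference was not tested.

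Atrip shares its downstream end with Trex1, which encodes a 3′ to 5′ exonuclease that degrades DNA in the cytosol. All 1147 exon bases of Trex1 are also exon bases of Atrip on the same strand, and they make up 16.04% of the 7152 exon bases of Atrip. Only 3 of the 9 annotated Atrip transcripts include them. Trex1 was the far more abundant of the 2 genes, with 197.8 and 206.1 FPKM in control and 280.1 and 298.9 in KO. It was called higher in KO, with a log2 fold change of 0.52 (SE 0.11, an unadjusted limma p of 0.0016, adjusted p = 0.0855), while Atrip was called lower. The 2 values therefore went in opposite directions at a locus where RSEM had to divide shared reads between both genes, and the division cannot be recovered from FPKM. How much of the difference in Atrip, or in Trex1, comes from that division was not tested. The promoter of Atrip is shown because its start lies far upstream of that of Trex1, outside the shared part. Capitals mark ATTGG, the reverse complement of the letters CCAAT, and GGGCGG.
Atrip, chr9:109074075-109074374, minus strand: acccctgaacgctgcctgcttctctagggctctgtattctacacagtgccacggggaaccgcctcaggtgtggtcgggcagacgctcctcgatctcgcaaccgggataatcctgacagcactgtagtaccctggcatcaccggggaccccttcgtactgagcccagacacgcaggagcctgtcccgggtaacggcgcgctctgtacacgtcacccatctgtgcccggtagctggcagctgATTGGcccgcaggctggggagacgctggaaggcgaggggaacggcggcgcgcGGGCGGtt
CCAAT was present on either strand in 38.2% of the 21263 promoter windows and in 50.9% of the windows of the 57 genes. GGGCGG was present in 46.2% and 66.7%, and TATAAA in 12.6% and 7.02%, respectively. The capitalised matches in this window do not overlap each other.

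**Figure D3:**
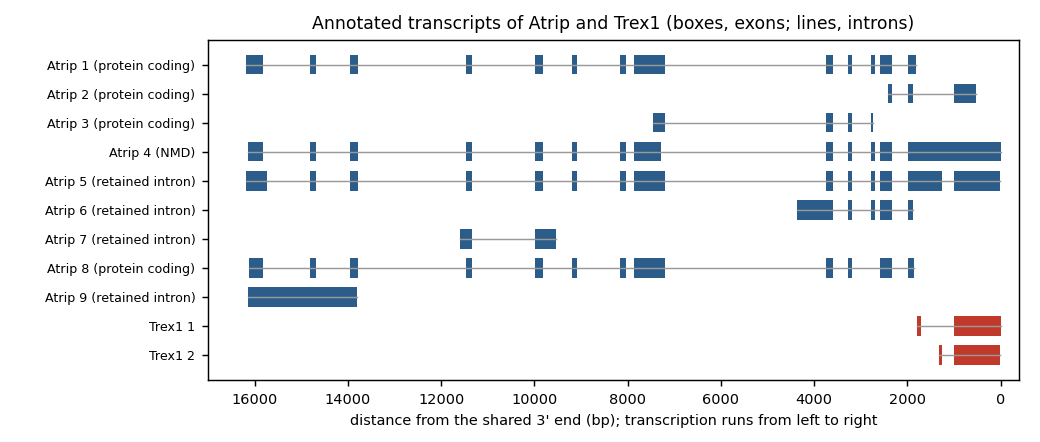
Exons (boxes) and introns (lines) of the 9 Atrip and 2 Trex1 transcripts of GENCODE M21, drawn to scale by distance in bp from the shared downstream end, with transcription from left to right. The 2 Trex1 transcripts lie in the last part of the locus, where 3 Atrip transcripts also have exons.

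Of the 9 base excision and single-strand break repair genes, 8 were tested and 1 was called, or 12.5%, compared with 16.2% of all genes tested. Their median log2 fold change was -0.23, with 6 below 0 and 2 above. Lig1, the ligase that joins Okazaki fragments and long-patch excision repair tracts, had 13.8 and 19.2 FPKM in control and 23.9 and 23.2 in KO. The genotypes did not overlap, but the 2 control pools differed from each other nearly as much as the genotypes did. The mean was 16.5 ± 3.83 in control and 23.6 ± 0.53 in KO (SD, n = 2 each), with a log2 fold change of 0.50 (SE 0.18, 95% interval 0.07 to 0.94, an unadjusted limma p of 0.0275, adjusted p = 0.246). The call was lost without control 1 (0.28, unadjusted p of 0.163), without KO 1 (0.48, p of 0.107) and without KO 2 (0.53, p of 0.0838).

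No other gene of this pathway was called. The highest was Apex1, the abasic site endonuclease, with 72.4 and 63.8 FPKM in control and 57.2 and 62.2 in KO (-0.19, adjusted p = 0.521). Of its exon bases 61.7% also belong to Tmem55b on the opposite strand, and whether the libraries kept strand is not stated in the sources used here. Fen1, the flap endonuclease of replication and long-patch repair, had 52.6 and 50.6 in control and 51.5 and 53.1 in KO (0.02), and 78.8% of its exon bases lie opposite the antisense gene Gm10143. Parp2 and Parp1 encode the poly(ADP-ribose) polymerases that sense strand breaks. Parp2 had 47.2 and 33.6 in control and 40.5 and 38.03 in KO (-0.02), and Parp1 had 20.1 and 22.7 in control and 18.9 and 16.1 in KO (-0.28, adjusted p = 0.442). Parp1 thus did not overlap between the genotypes, while Parp2 did.

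Xrcc1 and Lig3 encode the scaffold and the ligase that work as a complex in single-strand break repair. Xrcc1 had the largest difference of the pathway, with 12.8 and 11.2 FPKM in control and 10.1 and 5.80 in KO, and a log2 fold change of -0.58 (95% interval -1.18 to 0.03, adjusted p = 0.327). Most of it came from KO 2, without which the log2 fold change was -0.22. Without KO 1 it was -0.93 (unadjusted p of 0.0083). Lig3 had 6.68 and 7.92 in control and 5.60 and 5.12 in KO (-0.38, adjusted p = 0.420). Both genes were lower in both KO libraries and neither reached the threshold. Ung, the uracil glycosylase, had 6.95 and 7.34 in control and 7.92 and 3.76 in KO, and KO 2 alone was low (-0.32, adjusted p = 0.658). Without KO 1 its log2 fold change was -0.77 (unadjusted p of 0.0267), and without KO 2 it was 0.13. Ogg1, the 8-oxoguanine glycosylase, was below the limit, at 3.57 and 2.86 in control and 3.57 and 3.75 in KO.

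Lig1 (ENSMUSG00000056394, chr7:13277283-13311433, plus strand) is also a replication gene, and its promoter holds letters recognised by E2F factors, which drive genes of S phase. RefSeq has 3 windows for Lig1, and this one is shown because 4 of the 12 GENCODE transcripts start in it, more than in either of the others. Capitals mark CCGCCC, the reverse complement of GGGCGG, at a pair of places, and GCGCGAAA, a match to the E2F letters.
Lig1, chr7:13278576-13278875, plus strand: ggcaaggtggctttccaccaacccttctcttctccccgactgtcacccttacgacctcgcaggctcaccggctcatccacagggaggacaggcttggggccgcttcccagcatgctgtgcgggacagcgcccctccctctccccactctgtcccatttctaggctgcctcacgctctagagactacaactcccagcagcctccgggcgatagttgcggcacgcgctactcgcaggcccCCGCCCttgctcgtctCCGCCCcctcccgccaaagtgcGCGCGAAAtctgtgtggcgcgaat
E2F letters were searched as TTTCCCGC, TTTGGCGC, TTTGCCGC and TTTCGCGC on both strands, and the matches in this window do not overlap. They were present in 7 of the 57 windows, or 12.3%, compared with 2.86% of the 21263 windows of protein-coding genes. The letters were added after values or windows were seen, so these shares describe the windows and test no enrichment. Binding of E2F factors was not measured. The genes with these letters were Bard1, Brca2, Chek2, Lig1, Mdc1, Msh3 and Xrcc6. Of these, Lig1, Msh3 and Xrcc6 were tested, Lig1 was called, and the other 4 were below the expression limit. In a list of 26 proliferation genes outside the 57, 23 were tested, 11 were called higher (47.8%) and none lower, with a median log2 fold change of 0.36. The examples with the smallest p were Top2a, the topoisomerase of dividing cells (19.1 and 19.4 FPKM in control, 36.3 and 33.2 in KO, 0.82, p of 0.00046), Cdc20, an activator of the anaphase-promoting complex (14.9 and 13.5, 25.8 and 23.8, 0.76, p of 0.0012), and Cdk1, the mitotic kinase (7.73 and 10.9, 25.7 and 17.2, 1.11, p of 0.0022). Their adjusted p-values were 0.0612, 0.0821 and 0.0945. The summed FPKM of the 26 genes was 821 and 791 in control and 984 and 978 in KO. Cdkn1a, an inhibitor of the cell cycle, was thus called higher in the same comparison as 11 proliferation genes. The part of cell division in the difference of Lig1 or Cdkn1a was not tested.

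**Figure D4:**
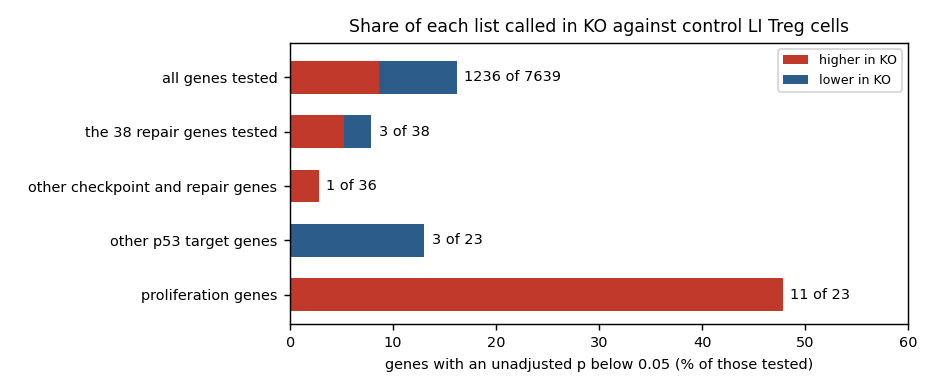
Share of the genes tested in each list that had an unadjusted p below 0.05, in percent, split into higher (red) and lower (blue) in KO; the numbers give genes called of genes tested. The 38 repair genes lie below the share of all genes tested (7.89% and 16.2%), and the proliferation list lies above it (47.8%).

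Homologous recombination and its end-resection step were represented by 12 genes, of which 6 were tested and none was called. The highest was Rbbp8, which encodes CtIP and starts resection, with 28.7 and 29.5 FPKM in control and 31.3 and 31.6 in KO. The pools of each genotype were close and did not overlap, but the difference was small (log2 fold change 0.11, 95% interval -0.19 to 0.41, adjusted p = 0.737). The 3 genes of the MRN complex, which holds broken ends together and activates ATM, had differences of both signs. Mre11a, its nuclease, had 11.1 and 9.67 in control and 8.78 and 6.44 in KO, the largest difference of the group (-0.42, 95% interval -0.91 to 0.08, adjusted p = 0.388). Rad50, its ATPase, had 10.7 and 9.55 in control and 12.3 and 14.4 in KO (0.36, 95% interval -0.05 to 0.78, adjusted p = 0.366). Nbn, the remaining subunit, had 9.29 and 6.73 in control and 9.11 and 8.96 in KO (0.17, adjusted p = 0.748). Mre11a was therefore lower and Rad50 higher in both KO libraries, and neither passed the test. Blm, a helicase that dissolves recombination intermediates, had 6.32 and 5.38 in control and 7.81 and 8.25 in KO (0.40, adjusted p = 0.381). Rad52, which anneals single strands, had 10.3 and 10.8 in control and 10.7 and 9.69 in KO (-0.04).

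The recombination mediators themselves were near or below the expression limit. Wrn, a helicase related to Blm, had 4.97 and 4.16 FPKM in control and 4.43 and 5.07 in KO. Brca2 had 2.79 and 2.95 in control and 3.23 and 2.56 in KO, Brca1 had 1.29 and 2.21 in control and 2.23 and 1.93 in KO, and Palb2, which links both proteins, had 0.86 and 1.83 in control and 0.91 and 1.08 in KO. Bard1, the partner of Brca1, had 0.32 and 0.42 in control and 0.53 and 0.52 in KO. Rad54l, a motor protein of strand exchange, had 2.75 and 2.78 in control and 2.40 and 2.92 in KO. Of these, Bard1 alone did not overlap between the genotypes, at a level under 1 FPKM.

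The 3 listed Fanconi anaemia genes, whose proteins unhook crosslinks between DNA strands, were all below the limit. Other genes of this pathway belong to the further list of checkpoint and repair genes described below. Among them, Fancc had 16.7 and 19.6 FPKM in control and 16.3 and 17.2 in KO (log2 fold change -0.11). Fance had 4.30 and 5.99 in control and 4.66 and 4.19 in KO (-0.17). Both were tested and neither was called, while Fancb, Fancf, Fancg, Fancl and Fancm were below the limit. Fancd2 had 3.52 and 2.00 FPKM in control and 3.45 and 2.24 in KO, and its partner Fanci had 1.95 and 3.16 in control and 1.95 and 2.78 in KO. Fanca, a member of the core complex, had 1.36 and 1.77 in control and 0.31 and 0.62 in KO and did not overlap between the genotypes. With the minimum lowered to a mean FPKM of 1, Fanca was called lower (log2 fold change -0.81, an unadjusted limma p of 0.0235, adjusted p = 0.262). It shares 10.5% of its exon bases with Zfp276 on the opposite strand.

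Non-homologous end joining genes gave no call. The most abundant was Xrcc6, which encodes Ku70, with 13.1 and 12.1 FPKM in control and 13.6 and 13.6 in KO (log2 fold change 0.10, adjusted p = 0.810). Its partner Xrcc5, which encodes Ku80, had 7.97 and 6.55 in control and 8.76 and 6.71 in KO (0.08). Xrcc4, the cofactor of ligase IV, had 10.2 and 8.65 in control and 8.54 and 12.3 in KO (0.12, 95% interval -0.40 to 0.63), the largest difference of the 3 genes tested. In Xrcc5 and Xrcc4 the genotypes overlapped. Prkdc, the DNA-dependent kinase (1.54 and 1.79 in control, 1.67 and 1.32 in KO), Lig4, ligase IV itself (1.39 and 0.77, 0.91 and 0.72), and the joining factor Nhej1 (3.23 and 1.71, 2.19 and 2.21) were below the limit.

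Nucleotide excision repair genes, which remove ultraviolet photoproducts and other bulky adducts, also gave no call, with 4 of the 8 tested above 0 and 4 below. Ddb1, an adaptor of the CUL4 ubiquitin ligase with many roles outside repair, was the highest, with 57.6 and 83.8 FPKM in control and 68.4 and 53.9 in KO. The genotypes overlapped, and the log2 fold change was -0.19 (adjusted p = 0.689), which became -0.46 (unadjusted p of 0.033) without control 1 and 0.07 without control 2. Its partner Ddb2, which recognises photoproducts and is a p53 target, had 34.4 and 36.2 in control and 39.4 and 34.6 in KO (0.07, adjusted p = 0.863), and 23.8% of its exon bases lie opposite Acp2. Xpa, the scaffold of the incision complex, had 15.1 and 17.4 in control and 19.5 and 22.4 in KO, the largest difference of the group (0.35, 95% interval -0.03 to 0.72, adjusted p = 0.339). Xpa was higher in both KO libraries without reaching the threshold.

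The remaining genes of this pathway lay close to 0. Ercc1, a subunit of a nuclease that cuts beside the lesion, had 25.0 and 21.4 FPKM in control and 22.1 and 22.6 in KO (-0.05). Ercc5, the nuclease XPG, had 11.7 and 11.2 in control and 12.1 and 13.6 in KO (0.16). The TFIIH helicases were Ercc3, with 17.9 and 17.1 in control and 17.7 and 17.6 in KO (0.01), and Ercc2, with 4.86 and 5.28 in control and 5.88 and 3.86 in KO (-0.07). Ercc6, the transcription-coupled repair factor CSB, had 18.7 and 17.0 in control and 13.7 and 18.99 in KO (-0.13), and the damage sensor Xpc was below the limit, at 1.93 and 2.25 in control and 2.17 and 1.93 in KO. Of these genes, Ercc5 alone did not overlap between the genotypes.

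Mismatch repair was represented by 3 genes. Pms2, a subunit of the MutL nuclease, had 19.9 and 16.7 FPKM in control and 18.3 and 19.3 in KO (log2 fold change 0.04, 95% interval -0.33 to 0.41). Msh3, which recognises insertion and deletion loops, had 9.24 and 9.39 in control and 7.98 and 9.51 in KO (-0.09, 95% interval -0.52 to 0.35). Mlh3, of a further MutL complex, had 0.26 and 0.18 in control and 0.40 and 0.48 in KO, which did not overlap but lay under 1 FPKM. Neither Pms2 nor Msh3 was separated by genotype.

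**Figure D5:**
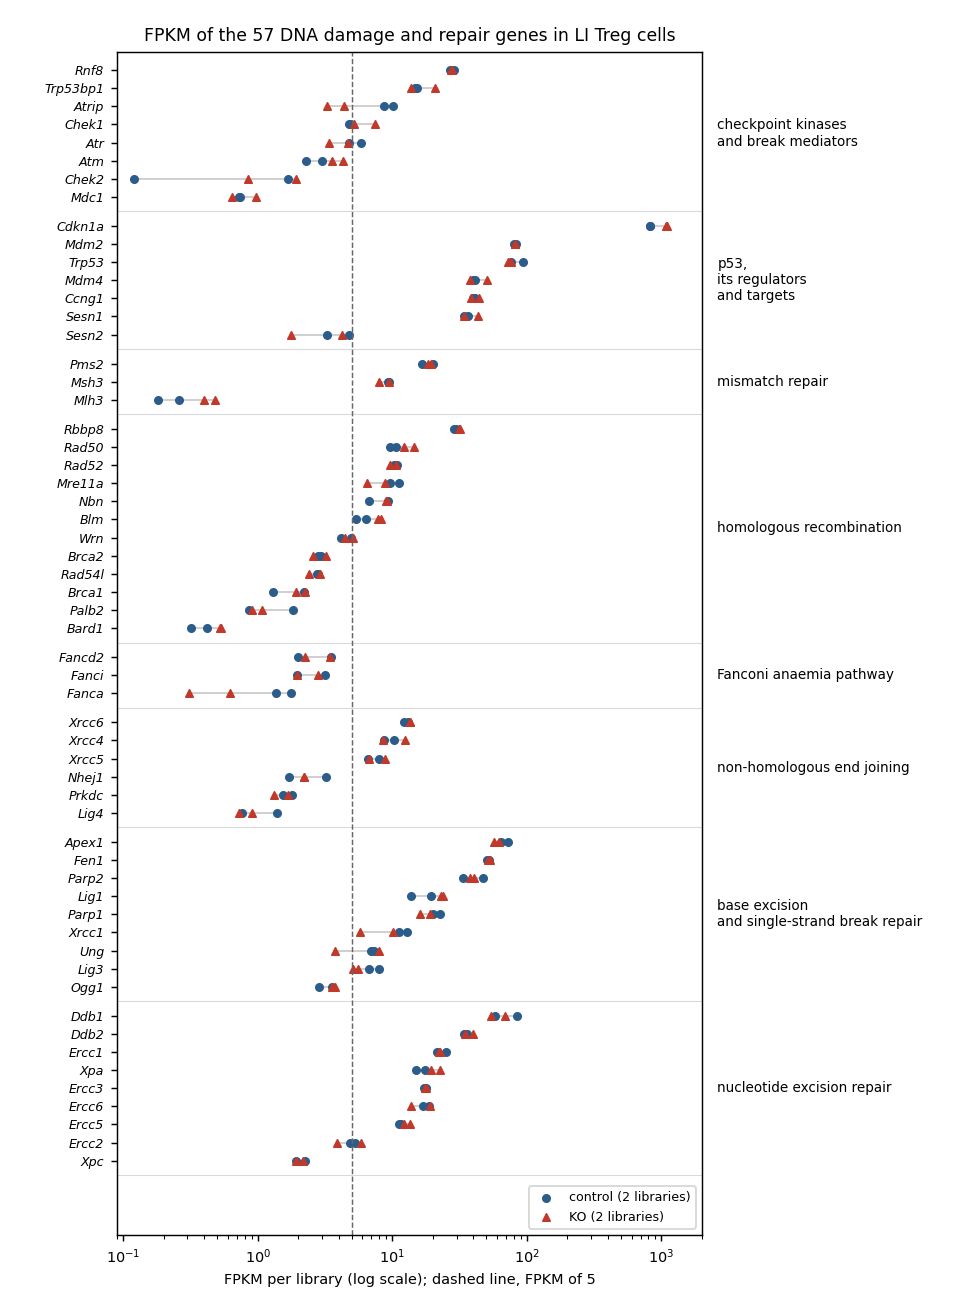
FPKM of the 57 genes in each library on a log axis, grouped by role and ordered by mean; circles are control and triangles KO libraries, and the dashed line marks an FPKM of 5. Cdkn1a stands above all other genes at 816.3 or more, and the 19 genes that were not tested lie between 0.12 and 5.07.

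In all, 19 of the 57 genes were not tested because neither group had a mean FPKM above 5. Their values ran from 0.12 to 5.07, none was at 0 in any library, and 4 of them (Atm, Mlh3, Bard1 and Fanca) did not overlap between the genotypes. Of all genes tested, 47.1% did not overlap, and the share over all genes below the limit was not computed. The summed FPKM of the 19 genes was 40.4 and 38.7 in control and 40.0 and 38.8 in KO. Exon bases are also shared with genes on the opposite strand in Trp53bp1 (15.04%, with Tubgcp4), Lig3 (25.1%, with Rffl), Ercc2 (17.8%, with Klc3), Fanci (15.95%, with Polg) and Rad54l (15.4%, with Lrrc41). Polg, at 25.5 to 32.8 FPKM, and Lrrc41, at 9.19 to 17.1, were more abundant than Fanci and Rad54l in every library. The same held for Tubgcp4, at 21.1 to 33.8, over Trp53bp1, and for Zfp276, at 5.57 to 8.17, over Fanca. The values of Fanci, Rad54l, Trp53bp1 and Fanca are therefore uncertain. A list of 64 further checkpoint and repair genes held 36 that were tested, of which 1 was called higher and none lower (2.78%, compared with 16.2% of all genes tested), with a median log2 fold change of 0.06. The gene called was Cetn2, which encodes a centrin that also binds the XPC complex, with 53.3 and 58.9 FPKM in control and 65.4 and 80.2 in KO (0.36, p of 0.0358, adjusted p = 0.273).

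Markers of other cell types were examined in the same libraries. Of the 5 epithelial markers, Epcam alone was above 1 FPKM, and Krt8, Krt20 and Vil1 were at or near 0. The summed level was 29.0 and 30.9 in control and 20.3 and 21.4 in KO, almost all of it from Epcam. Epcam was called lower in KO (28.65 and 30.81 FPKM in control, 19.58 and 21.13 in KO, log2 fold change -0.53, adjusted p = 0.147). Cdh1, which was not tested, went the other way without overlap (0.12 and 0.01 in control, 0.49 and 0.17 in KO). The summed level of 4 stromal and endothelial markers was 36.9 and 40.2 in control and 54.9 and 47.8 in KO, mostly from Pecam1, with Col1a1 and Col3a1 under 1 in each library. Pecam1 was called higher in KO (34.65 and 36.26 FPKM in control, 49.25 and 42.72 in KO, log2 fold change 0.36, adjusted p = 0.252). The stromal marker Dcn, which was not tested, had 1.21 and 3.22 in control and 4.47 and 4.25 in KO, with no overlap. The plasma cell marker Jchain was between 112.0 and 168.6 FPKM and the myeloid marker Lyz2 between 127.8 and 168.0, with overlapping genotypes, while the B cell genes Ms4a1 and Pax5 were at 0.63 or less. The summed level of 6 macrophage, dendritic cell and neutrophil markers was 187 and 166 in control and 161 and 211 in KO. Within that list, Adgre1 did not overlap, at 4.38 and 3.66 in control and 5.60 and 6.24 in KO, and was not called. Itgax, at 0.69 or less, did not overlap either. Markers of cytotoxic T and NK cells summed to 3.55 or less and those of mast cells to 1.11 or less. The Treg cell marker Il2ra also did not overlap, at 183.7 and 180.4 FPKM in control and 152.1 and 162.8 in KO. The epithelial and stromal sums, Dcn, Adgre1, Ctla4, Il2ra and Ikzf2 moved with genotype, as Cdkn1a, Lig1 and Atrip did. The part of these sums and markers in the differences of those 3 genes was not tested.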

How the data were processed

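LI Treg cells from 2 control and 2 KO pools were profiled by RNA-seq. The methods give a larger cell number per sample than the 200000 of the sample records. Per the submitters' processing notes and the methods, oligo(dT)-selected RNA was read as 150 bp pairs, aligned by STAR v2.5 to GRCm38 and passed to RSEM v1.2. An FPKM per gene and library was deposited by the authors, and these values share a common distribution across the 4 libraries, a step that the methods do not name. FPKM keep no depth, so no count test such as the edgeR test of the authors could be run and no counting interval is given. Gene types, positions and exons came from GENCODE M21, in which 53274 of 53379 gene identifiers were found, and the study used M16. KO was compared with control on log2(FPKM + 1) in limma 3.58.1 (R 4.3.3), with a trend and no covariate. Adding 1 understates the change of low genes. p-values are two-sided and were adjusted over all 7639 genes tested (Benjamini-Hochberg). On simulated data for KO against control over 7639 genes, the fit called, at the unadjusted threshold, all 200 genes given a log2 fold change of 1 and 5.22% of the unchanged genes, and 195 genes passed the adjusted threshold, 179 of them simulated as changed. The p-values measure the spread between these pools only.

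The members and lists were chosen with earlier results of these data known. The text names each member with an unadjusted p below 0.05, in each role group the member with the highest mean FPKM and the tested member with the largest log2 fold change in size, the p53 genes, Setd2, and up to 6 genes per other list with an unadjusted p below 0.05. The remaining members were added so that every member has its values. Trex1, the genes that share exons with a member, and the E2F and p53 letters were added after their values or windows were seen. Exon overlaps and promoter motifs were computed in Python 3.11.15 with pandas 2.3.3, and near-identical transcripts were sought with blastn 2.17.0 at 90% identity over 20% of a transcript. Trp53 and Mdm4 have processed pseudogenes, which were listed at 0. Promoter sequences are those of RefSeq for GRCm38.p6. Alternatives were a pseudocount of 0.1 or 5, a minimum of 1 or none, all gene types, rescaled, median-centred or quantile-normalized values, no trend, the replicate number as a block, a crossed pairing, an adjusted threshold, and each library left out in turn. The value of 1 marker gene and the sum that holds it are not reported here.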

Additional observations from a re-analysis of the deposited data

How the results depend on the processing

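Cdkn1a was called higher and Atrip lower, at an unadjusted p below 0.05, in all 16 settings, with a log2 fold change of 0.39 to 0.43 for Cdkn1a (adjusted p 0.0466 to 0.549) and of -1.29 to -0.71 for Atrip (adjusted p 0.0259 to 0.445). Lig1 was called in 12 of the 16 and missed the threshold with no filter on low FPKM (p of 0.0515) and without control 1, KO 1 or KO 2. Of the 38 genes tested, 17 kept the sign of their difference in all 15 alternatives. The number of the 57 genes called was 3, and it was 0 with the adjusted p and 5 with no trend, which added Lig3 and Blm. It was 4 with a minimum of 1, which added Fanca. With no filter on low FPKM it was also 4, with Fanca and Mlh3 added and Lig1 lost. With no trend, 1171 of all 7639 genes tested were called. Over all genes, the 1236 calls became 45 with the adjusted p and 1946 with no filter. Mdm2 turned to 0.0044 with the libraries rescaled to the same total. Around the group means, libraries with the same number deviated with a Pearson r of -0.305 over 7639 genes, and thus did not vary together. This correlation cannot show whether same-numbered pools belong together, and the labels do not say. With the replicate block 4 of the 57 genes were called, Xrcc1 being added (an unadjusted limma p of 0.0446), and 796 of all genes. With the crossed pairing, added after the data were seen, 6 of the 57 genes and 1991 of all genes were called, and 2 of the 57 and 465 of all genes passed the adjusted threshold. Given the negative r, this rise follows from the choice of pairing. The lowest adjusted p-values of Cdkn1a and Atrip given above come from the crossed pairing. With a library left out, the remaining one of its group is assumed to vary like those of the other group. The calls among the 57 then ranged from 2 to 5, with the highest, without KO 1, adding Mre11a, Xrcc1 and Ung and losing Lig1, and the calls over all genes ranged from 644, without KO 2, to 1250, and those with the adjusted p from 2, without KO 1, to 66, without control 2. The median over the 38 genes ranged from -0.022 to 0.046. The log2 fold changes that changed sign when a library was left out ranged as follows: Trp53bp1 -0.13 to 0.44, Rnf8 -0.051 to 0.031, Mdm2 -0.025 to 0.020, Mdm4 -0.11 to 0.31, Sesn1 -0.051 to 0.30, Ccng1 -0.067 to 0.11 and Msh3 -0.20 to 0.027. The same held for Pms2 -0.081 to 0.16, Rad52 -0.11 to 0.021, Nbn -0.036 to 0.38, Xrcc4 -0.13 to 0.36, Xrcc5 -0.094 to 0.25, Parp2 -0.26 to 0.22 and Ung -0.77 to 0.13. It also held for Fen1 -0.0075 to 0.045, Ercc1 -0.16 to 0.061, Ercc2 -0.32 to 0.18, Ercc3 -0.018 to 0.047, Ercc6 -0.35 to 0.087, Ddb1 -0.46 to 0.075 and Ddb2 -0.025 to 0.16. Depth is unknown, and 2 pools per group limit the precision of each value.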
